A study of Mus musculus with 6 samples.

Results

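*Tnfsf11*, *Tnfrsf11a* and *Tnfrsf11b* encode the cytokine RANKL, its receptor RANK and the soluble decoy receptor osteoprotegerin. They were taken by gene symbol from the table of counts, in which 3 of 56748 genes matched. RNA was sequenced from primary cells isolated as osteocytes from the long bones of mice, with 3 libraries labelled WT and 3 labelled cKO, called cKO-labelled here. WT mice were C57BL/6, aged 7 weeks in the isolation method, and cKO stands for *Gsdmd* fl/fl; DMP1-Cre mice, in which Cre recombinase under the *Dmp1* promoter removes floxed exons of *Gsdmd*, the gene of the pore-forming protein gasdermin D. For the cKO mice the methods say only that age and sex were matched. All 6 cultures were grown for 7 days, then stimulated with LPS (10 ng/mL, 3 h) and next with 20 µg/mL aluminum hydroxide for a further 3 h, so the comparison is between the genotype labels under stimulation. The records do not say whether replicates came from separate mice, and p-values measure the spread between these libraries.

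Osteoclasts, the cells that resorb bone, form from myeloid precursors when RANKL binds RANK on the precursor surface. RANK recruits TRAF6 and other adapters, activates NF-κB, MAP kinases and AP-1, and with costimulatory receptors induces the transcription factor NFATc1. Osteoprotegerin is secreted by stromal and osteoblastic cells and captures RANKL before it reaches RANK, so the amount of RANKL relative to osteoprotegerin is a standard measure of the osteoclast-forming signal. Osteocytes are a main source of RANKL in adult bone, and the experiment looked for molecular changes that bear on bone turnover in mice without osteocyte *Gsdmd*.

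The sequences just upstream of the start sites are shown because both of the genes that rose, the ligand and its receptor, had one in the RefSeq promoter table, which held 2 of the 3 members. Each covers the 250 bases before the RefSeq start in GRCm38.p6, written 5′ to 3′ on the gene's own strand. Capitals mark matches to TATAAA and CCAAT in *Tnfsf11*, both on the opposite strand and so written TTTATA and ATTGG, and to GGGCGG, the GC box, in *Tnfrsf11a*.
*Tnfsf11*, chr14:78308044-78308293, minus strand: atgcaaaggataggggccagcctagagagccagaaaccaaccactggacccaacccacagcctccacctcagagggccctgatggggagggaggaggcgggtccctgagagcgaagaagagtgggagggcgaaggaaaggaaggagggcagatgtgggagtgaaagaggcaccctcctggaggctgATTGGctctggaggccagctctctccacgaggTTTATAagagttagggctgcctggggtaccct
*Tnfrsf11a*, chr1:105780473-105780722, plus strand: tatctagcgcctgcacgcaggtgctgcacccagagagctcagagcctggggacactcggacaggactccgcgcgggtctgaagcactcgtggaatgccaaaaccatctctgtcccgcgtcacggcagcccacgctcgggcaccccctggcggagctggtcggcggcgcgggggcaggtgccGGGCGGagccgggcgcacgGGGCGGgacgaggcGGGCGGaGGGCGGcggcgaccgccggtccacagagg

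The upstream windows differed in composition. That of *Tnfsf11* held 60.4% G or C and 4 CpG, with a match to TATAAA beginning 32 bases and one to CCAAT beginning 64 bases before the start. TATAAA was found in 12.4% and CCAAT in 33.8% of the 32851 promoter windows of this length. That of *Tnfrsf11a* held 73.6% G or C and 31 CpG, more G or C than 94.7% of all windows, and neither of these motifs. It held 4 matches to GGGCGG, which begin 69, 50, 36 and 29 bases before the start, and 32.7% of windows had at least 1. Neither window held TGTGGT (Runx, 14.0% of windows), TGANTCA (AP-1, 6.75%), GAGGAAG (PU.1, 10.6%), TGACGTCA (cyclic AMP response element, 1.55%) or the NF-κB motif searched for (0.356%), and the E-box CANNTG, present in 66.2% of windows, was found once in *Tnfsf11* and in 2 places in *Tnfrsf11a*. Both strands were searched, and none of the matches overlapped a match to another motif. The motifs were chosen with the sequences known, and a match describes letters, not binding.

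The libraries held 39566835 to 49734046 counts on genes. *Gsdmd* itself was higher in the cKO-labelled libraries, with 885 to 1045 counts against 549 to 699 in WT. Its log2 fold change was 0.69 with a standard error (SE) of 0.083 (edgeR adjusted p = 2.27e-06). This gene-level count covers all exons together and so does not isolate the deleted ones. It also pools all cells of a culture, whereas Cre under the *Dmp1* promoter is meant to act in osteocytes. The count therefore cannot show whether the deletion took place. It did not fall as the label would have it, and every direction below rests on that label. *Xist*, the RNA that silences an X chromosome in females, had 44817 to 51216 counts in the cKO-labelled libraries against 0 to 4 in WT, whereas 4 Y-linked genes had 0 counts in each of the former and 1203 to 5455 in WT. By these counts the groups differed in sex, although the methods state that mice were matched for sex. Sex and genotype label therefore cannot be told apart. The defining osteocyte markers were at or near 0: *Sost* had 0 counts in all 6 libraries, *Mepe* 0 to 2, *Dmp1* 0 to 6, *Phex* 2 to 22 and *Fgf23* 0 to 34.

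The 3 members moved in different directions between the groups. RANKL and RANK transcripts were higher, and osteoprotegerin transcripts lower, in the cKO-labelled libraries, and for each gene the libraries of the 2 groups did not overlap. All 3 passed edgeR's quasi-likelihood test at an adjusted p-value below 0.05, as did 39.3% of the 17146 tested genes (20.1% higher and 19.2% lower). Non-overlap was found for 49.2% of tested genes (25.3% higher and 23.9% lower), so neither property sets the members apart. In a bulk library fewer cells of a type and less RNA per cell cannot be told apart.

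*Tnfsf11* (ENSMUSG00000022015), the ligand, lies on the minus strand of chromosome 14 of GRCm39 (mm39) from 78514885 to 78545483. Its single transcript in GENCODE M39 has 5 exons. The WT libraries held 540, 635 and 644 counts of it, and those labelled cKO held 1515, 1421 and 1651. After scaling to counts per 1000000 (CPM) by edgeR's TMM method, the levels were 12.0, 12.8 and 16.6 CPM in WT and 36.0, 35.7 and 36.3 CPM in the cKO-labelled libraries. WT replicate 3 stood above the other two WT libraries, and the 3 cKO-labelled libraries lay close together. The spread was 17.8% of the mean in WT and 0.848% in the cKO-labelled libraries. The means were 13.8 ± 2.45 CPM and 36.0 ± 0.306 CPM (SD, n = 3 each), a log2 fold change of 1.39 (SE 0.098, edgeR adjusted p = 2.47e-09), or 2.62-fold. Among tested genes, 5.09% had a larger positive log2 fold change. Without WT replicate 3 the log2 fold change was 1.53.

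*Tnfrsf11a* (ENSMUSG00000026321), the receptor, lies on the plus strand of chromosome 1 from 105708443 to 105775709, and its canonical transcript has 10 exons. It was the least abundant of the 3 and changed most. There were 64, 96 and 65 counts in WT against 602, 657 and 783 in the cKO-labelled libraries. These counts corresponded to 1.42, 1.93 and 1.67 CPM in WT and to 14.3, 16.5 and 17.2 CPM in the cKO-labelled libraries. The lowest library labelled cKO was thus far above the highest WT library. The means were 1.68 ± 0.256 and 16.0 ± 1.53 CPM (SD, n = 3 each), with a log2 fold change of 3.25 (SE 0.147, edgeR adjusted p = 5.42e-12), or 9.51-fold. Only 0.828% of tested genes had a larger positive log2 fold change.

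*Tnfrsf11b* (ENSMUSG00000063727), the decoy receptor, lies on the minus strand of chromosome 15 from 54114015 to 54141880 and has 5 exons in its canonical transcript. There were 22682, 24258 and 17709 counts in WT against 11775, 10693 and 12437 in the cKO-labelled libraries. Its levels were 504, 489 and 456 CPM in WT and 279.8, 269 and 274 CPM in the cKO-labelled libraries. Every library labelled cKO was below every WT library. The means were 483 ± 24.4 and 274 ± 5.47 CPM (SD, n = 3 each), a log2 fold change of -0.82 (SE 0.042, edgeR adjusted p = 3.53e-11), so that WT was 1.76-fold higher. This gene was abundant, with 98.1% of tested genes at a lower mean CPM. Its change was smaller in size than a log2 fold change of 1, the added limit that 6.56% of tested genes passed upward and 4.64% downward, and that *Tnfsf11* and *Tnfrsf11a* passed. No other gene of the table overlapped the coordinates of any of the 3 members on either strand.

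**Figure D1:**
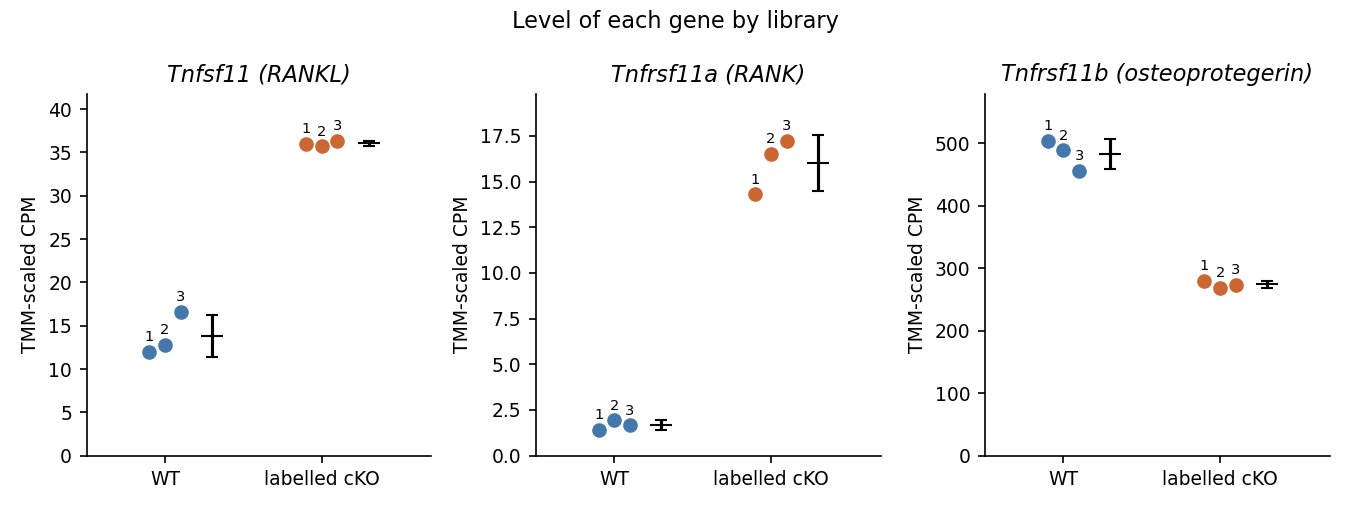
Level of *Tnfsf11*, *Tnfrsf11a* and *Tnfrsf11b* in TMM-scaled CPM (vertical axes, linear from 0) in each library, with points numbered by replicate, blue for WT and orange for cKO-labelled libraries. Black bars give the mean and SD (n = 3); RANKL and RANK sit higher and osteoprotegerin lower in the cKO-labelled libraries, with no overlap.

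Levels of different genes were compared per kb of gene length. On that scale osteoprotegerin ranked above RANKL, and RANKL above RANK, in each of the 6 libraries. In WT the levels were 171 ± 8.65, 6.17 ± 1.10 and 0.280 ± 0.043 CPM per kb (SD, n = 3), and in the cKO-labelled libraries 97.3 ± 1.94, 16.1 ± 0.137 and 2.68 ± 0.255 CPM per kb. Neighbors in this order lay further apart than the spread between replicates in both groups. Osteoprotegerin was thus the most abundant transcript of the 3 in both groups.

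The ratio of RANKL to osteoprotegerin was taken within each library from the counts, where it does not depend on the scaling between libraries. The intervals are 95% Clopper-Pearson intervals of the share of *Tnfsf11* in the sum of both counts, turned into a ratio, and they cover counting error only, as amplified reads are not independent molecules. In WT replicate 1 there were 0.0238 *Tnfsf11* counts per *Tnfrsf11b* count (0.0218 to 0.0259). WT replicate 2 had 0.0262 (0.0242 to 0.0283) and WT replicate 3 had 0.0364 (0.0336 to 0.0393). WT replicate 3 lay above the other two WT libraries by more than counting error. In the cKO-labelled libraries the ratio was 0.129 (0.122 to 0.136) in replicate 1, 0.133 (0.126 to 0.140) in replicate 2 and 0.133 (0.126 to 0.140) in replicate 3. These intervals overlapped one another and lay above all 3 WT intervals. Among genes with 1 to 20 counts, 61.7% to 64.2% of counts per library were even, and whether both mates of a fragment were counted was not tested. With all counts halved the interval was 0.0324 to 0.0406 in WT replicate 3, still above 0.0210 to 0.0269 and 0.0234 to 0.0293 in replicates 1 and 2, and the lowest bound among the cKO-labelled libraries was 0.119.

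The mean ratio was 0.0288 ± 0.00667 in WT and 0.131 ± 0.0024 in the cKO-labelled libraries (SD, n = 3 each). The difference of the mean log2 ratios was 2.22, or 4.64-fold, and was larger than the spread within groups, with an SD of 0.321 in WT and 0.0265 in the cKO-labelled libraries. The exact two-sided permutation test over libraries gave p = 0.1, the smallest value that 3 libraries against 3 allow, and so could not pass 0.05. Without WT replicate 3 the difference was 2.40. Per kb of gene length the level of osteoprotegerin was 28.5 ± 5.97 times that of RANKL in WT and 6.04 ± 0.111 times that of RANKL in the cKO-labelled libraries. Osteoprotegerin transcripts were therefore in excess of RANKL transcripts in both groups.

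**Figure D2:**
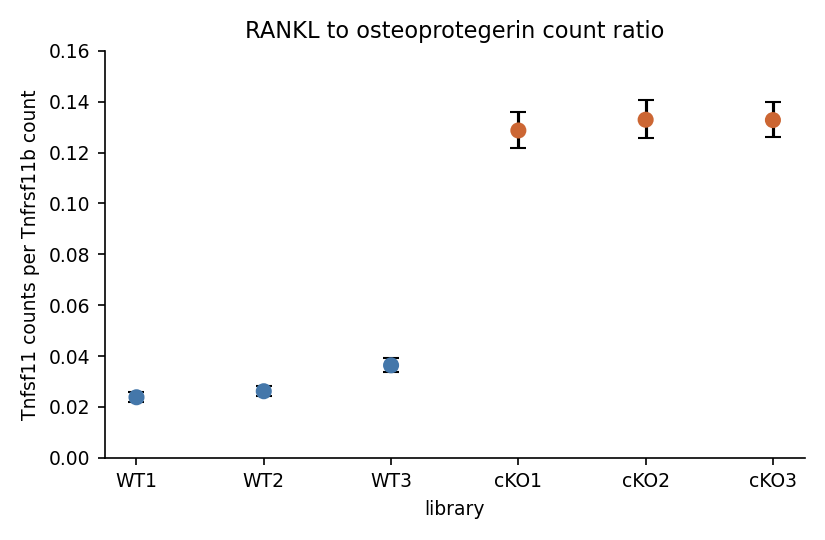
Counts of *Tnfsf11* per count of *Tnfrsf11b* (vertical axis, linear from 0) in each library (horizontal axis), blue for WT and orange for cKO-labelled libraries. Bars are 95% Clopper-Pearson intervals of counting error; the WT libraries lie between 0.0238 and 0.0364 and the cKO-labelled libraries between 0.129 and 0.133.

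The receptor rose more than its ligand. *Tnfrsf11a* counts per *Tnfsf11* count were 0.119, 0.151 and 0.101 in WT and 0.397, 0.462 and 0.474 in the cKO-labelled libraries. The lowest ratio in the cKO-labelled libraries exceeded the highest WT ratio. The difference of the mean log2 ratios was 1.86 (exact permutation p = 0.1, the smallest possible here). The same ratio against *Tnfrsf11b* differed by 4.08 on the log2 scale, from 0.00348 ± 0.000591 to 0.0585 ± 0.00644 (SD, n = 3 each), with the same exact permutation p of 0.1. Ratios that share a gene are not independent of one another.

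Markers of other cells that make or respond to RANKL moved with the groups. All 9 markers of a macrophage list rose (median log2 fold change 2.81), and the summed level of the list was 1145 to 1292 CPM in WT and 5869 to 6141 CPM in the cKO-labelled libraries. *Csf1r*, the CSF1 receptor of the osteoclast lineage, rose from 26.1 ± 1.63 to 234.9 ± 8.39 CPM (SD, n = 3 each), a log2 fold change of 3.17 (edgeR adjusted p = 3.63e-17). That of *Tnfrsf11a* was 3.25. The log2 fold changes of the 9 markers ran from 1.73 for *Cd14* to 4.25 for *Fcgr1*, so that *Tnfrsf11a* lay within their range. Relative to the summed list, *Tnfrsf11a* was 1.24 to 1.55 per 1000 CPM in WT and 2.44 to 2.81 per 1000 CPM in the cKO-labelled libraries, but most of that sum was the lysozyme gene *Lyz2* (986 ± 57.1 and 4518 ± 114 CPM), whose log2 fold change was 2.20. The part of these cells in the level of *Tnfrsf11a* was not tested.

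The stromal markers gave a mixed picture. The summed osteoblast list, most of which was *Spp1* and *Col1a1*, was 13605 to 15441 CPM in WT and 9080 to 9297 CPM in the cKO-labelled libraries. Of its 6 tested markers 4 fell, *Spp1* and *Col1a1* among them, while *Ibsp* and *Alpl* rose (log2 fold changes of 2.01 and 0.68). Per 1000 CPM of this list, *Tnfrsf11b* was 35.8, 35.9 and 29.5 in WT replicates 1, 2 and 3. In the cKO-labelled libraries it was 29.3 to 30.8, so that the groups overlapped on this scale only through WT replicate 3. *Tnfsf11* on the same scale was 0.852 to 1.07 in WT and 3.89 to 3.97 in the cKO-labelled libraries, and did not overlap. The marrow stromal list, led by *Cxcl12*, summed to 569.9 to 651 CPM in WT and 1285 to 1323 CPM in the cKO-labelled libraries. Of its 5 tested markers 3 rose, 1 fell and 1 did not pass, and the sum followed *Cxcl12*, a chemokine gene (334 ± 32.8 to 1053 ± 12.1 CPM), whereas *Kitl*, the gene of stem cell factor, fell from 98.1 ± 3.12 to 27.7 ± 1.14 CPM. Per 1000 CPM of that list, *Tnfsf11* was 18.4, 20.4 and 29.1 in WT replicates 1, 2 and 3. It was 27.0 to 28.2 in the cKO-labelled libraries, and the groups overlapped only through WT replicate 3. On the same scale *Tnfrsf11b* was 774 to 801 in WT and 203 to 218 in the cKO-labelled libraries. The comparison with marker sums thus depended on the list, and the part of cell composition in the levels of *Tnfsf11* and *Tnfrsf11b* was not tested. The osteocyte list rested on *Pdpn*, *Irx5* and *Kcnk2*, and its sum was 244 to 259.7 CPM in WT and 206 to 214 CPM in the cKO-labelled libraries. Most of that sum was *Pdpn* (234 ± 7.59 and 193 ± 3.57 CPM).

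Lymphocytes, which can make RANKL, left almost no transcripts. *Cd3e*, *Cd3d*, *Cd3g* and *Cd8a* had 0 counts in all 6 libraries, and the T cell list summed to at most 1.17 CPM, mainly *Trac* in WT and *Cd4* in 1 library labelled cKO. The B cell list summed to at most 0.665 CPM. The neutrophil list summed to 4.59 to 7.86 CPM in WT and 10.1 to 11.2 CPM in the cKO-labelled libraries, and *S100a9* was at 0. The chondrocyte list, 3 of whose 5 tested markers rose and 2 fell, summed to 1962 to 2173 CPM in WT against 2923 to 3111 CPM in the cKO-labelled libraries. Its most abundant members moved apart, with *Comp* at 567 ± 26.4 and 2117 ± 75.2 CPM and *Col2a1* at 1428 ± 77.7 and 798 ± 47.5 CPM. The largest change in that list was that of *Acan*, with 2 to 8 counts in WT and 782 to 922 in the cKO-labelled libraries (log2 fold change 7.36). The endothelial list summed to 6.41 to 6.84 CPM in WT against 6.32 to 6.71 CPM, with 4 of 5 markers lower and *Kdr* higher. The osteoclast list summed to 143 to 152 CPM in WT against 150.5 to 181 CPM, with 2 markers higher, 2 lower and 2 not past the test.

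**Figure D3:**
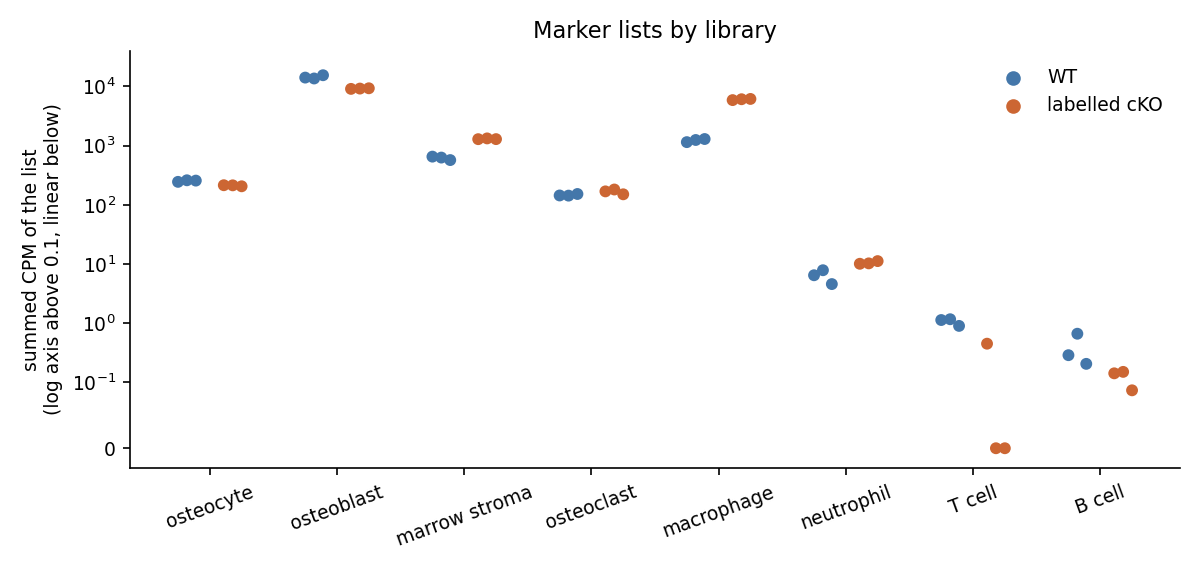
Summed CPM of 8 of the marker lists (vertical axis, logarithmic above 0.1 and linear below) in each library, blue for WT and orange for cKO-labelled libraries. The macrophage sum is 1145 to 1292 CPM in WT and 5869 to 6141 CPM in the cKO-labelled libraries, and the T cell and B cell sums stay at or below 1.17 CPM.

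Around the members, 136 genes of the RANKL and RANK pathway were described in lists by role. Of the 130 tested, 63 rose and 32 fell (48.5% and 24.6%, against 20.1% and 19.2% of all tested genes), and the median log2 fold change was 0.10, against 0.01 over all tested genes. Of the 130, 29 rose and 7 fell by a log2 fold change of at least 1 in size. Among all tested genes 6.56% rose and 4.64% fell by that much. The lists were written with earlier results of these data known, and they were counted and not tested as lists. Values written with ± are the mean and SD of 3 libraries.

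Of 7 tested genes for other receptors, binding partners and companion cytokines, 5 rose, 1 fell and 1 did not pass the test. *Lgr4*, a second receptor for RANKL, was at 67.3 ± 4.64 CPM in WT and 70.8 ± 0.912 CPM in the cKO-labelled libraries (SD, n = 3 each), with a log2 fold change of 0.07 (edgeR adjusted p = 0.324) and an interval of 2 standard errors from -0.04 to 0.18. *Tnfsf10*, the death ligand TRAIL that osteoprotegerin also binds, had 0 to 1 counts in WT and 6 to 10 in the cKO-labelled libraries, too few to be tested. *Csf1*, the growth factor that osteoclast precursors need beside RANKL, fell from 1294 ± 73.8 to 884 ± 23.6 CPM (log2 fold change -0.55, edgeR adjusted p = 4.26e-09). *Il34*, the other ligand of the CSF1 receptor, rose from 10.4 ± 1.5 to 16.9 ± 0.371 CPM (log2 fold change 0.70, edgeR adjusted p = 4.19e-05). *Csf1r*, the receptor for both, is described above. *Sdc1*, *Sdc4* and *Vwf*, whose products can bind osteoprotegerin, also rose, with log2 fold changes of 0.19, 0.40 and 1.67.

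Of the proteases that can shed RANKL from the cell surface, *Adam19* fell from 169 ± 7.94 to 45.1 ± 1.63 CPM (log2 fold change -1.91) and *Mmp14* from 495 ± 27.5 to 371 ± 5.39 CPM (-0.41). *Adam10* and *Adam17* rose by log2 fold changes of 0.15 and 0.23. *Mmp7* had 0 counts in every library.

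Of 15 adapters and proximal kinases below RANK, 2 rose, 5 fell and 8 did not pass the test. *Traf6*, the main adapter of RANK, fell from 38.4 ± 2.30 to 33.5 ± 1.19 CPM (log2 fold change -0.20, edgeR adjusted p = 0.02). *Traf1*, an NF-κB-induced adapter, rose from 3.15 ± 0.533 to 6.58 ± 0.495 CPM (1.07), and *Gab2*, a scaffold of RANK, from 35.6 ± 2.45 to 54.0 ± 4.11 CPM (0.60). *Src*, a kinase gene, and *Sqstm1*, which encodes p62, fell, with log2 fold changes of -0.33 and -0.42. In the NF-κB arm 4 of 10 genes rose and 1 fell, none of them by a log2 fold change of 1 or more, and the largest value was 0.51 for the kinase gene *Ikbkb*. In the MAP kinase and AP-1 arm 3 of 13 rose and 5 fell. *Fos*, an AP-1 subunit needed for osteoclast formation, was the one gene of that arm past 1, at 13.1 ± 0.0523 CPM in WT and 64.1 ± 1.77 CPM in the cKO-labelled libraries (2.29).

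The costimulation, calcium and NFATc1 arm held 13 of the 29 pathway genes that rose by a log2 fold change of at least 1. Of its 19 genes, 14 rose and 1 fell, with a median log2 fold change of 1.96. The genes that rose include *Tyrobp* and *Fcer1g*, adapters with ITAM motifs (3.01 and 2.71), the receptor gene *Trem2* (2.53), the kinase gene *Syk* (1.96) and *Spi1*, which encodes the myeloid factor PU.1 (2.99). These are genes of the myeloid lineage, and the macrophage markers above moved with them. *Nfatc1*, the transcription factor that RANK signaling induces, did not pass the test, at 88.5 ± 1.26 CPM in WT and 87.1 ± 1.02 CPM in the cKO-labelled libraries (log2 fold change -0.02, SE 0.045, edgeR adjusted p = 0.731). The groups overlapped for *Nfatc1*.

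Brakes on the pathway mostly rose. Of 15 such genes, 9 rose and 2 fell. *Irf8*, a transcription factor of macrophages that opposes osteoclast formation, had a log2 fold change of 2.72, and *Inpp5d*, which encodes the phosphatase SHIP1, of 3.03. *Tnfaip3*, a deubiquitinase that limits NF-κB, fell by 0.15 on the log2 scale.

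Genes that RANK signaling induces in osteoclasts did not move together. Of 12 tested, 6 rose and 4 fell. *Acp5*, the gene of the osteoclast enzyme TRAP, rose from 5.70 ± 0.953 to 13.5 ± 0.336 CPM (1.24), and the proton pump subunits *Atp6v0d2* and *Tcirg1* had log2 fold changes of 1.84 and 1.27. *Mmp9* fell from 21.9 ± 3.70 to 3.05 ± 0.609 CPM (-2.83), *Ctsk*, the gene of the collagen-degrading cathepsin K, from 96.6 ± 3.86 to 73.0 ± 6.87 CPM (-0.41), and *Car2*, which acidifies the resorption space, from 2.30 ± 0.435 to 0.106 ± 0.0935 CPM (-4.36). Some osteoclast markers were near 0, with 0 to 8 counts of *Dcstamp*, 6 to 22 of *Ocstamp* and 0 to 2 of *Calcr*, the calcitonin receptor. Others of the same marker list were not, with 774 to 3492 counts of *Atp6v0d2* and 2955 to 4620 of *Ctsk*.

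**Figure D4:**
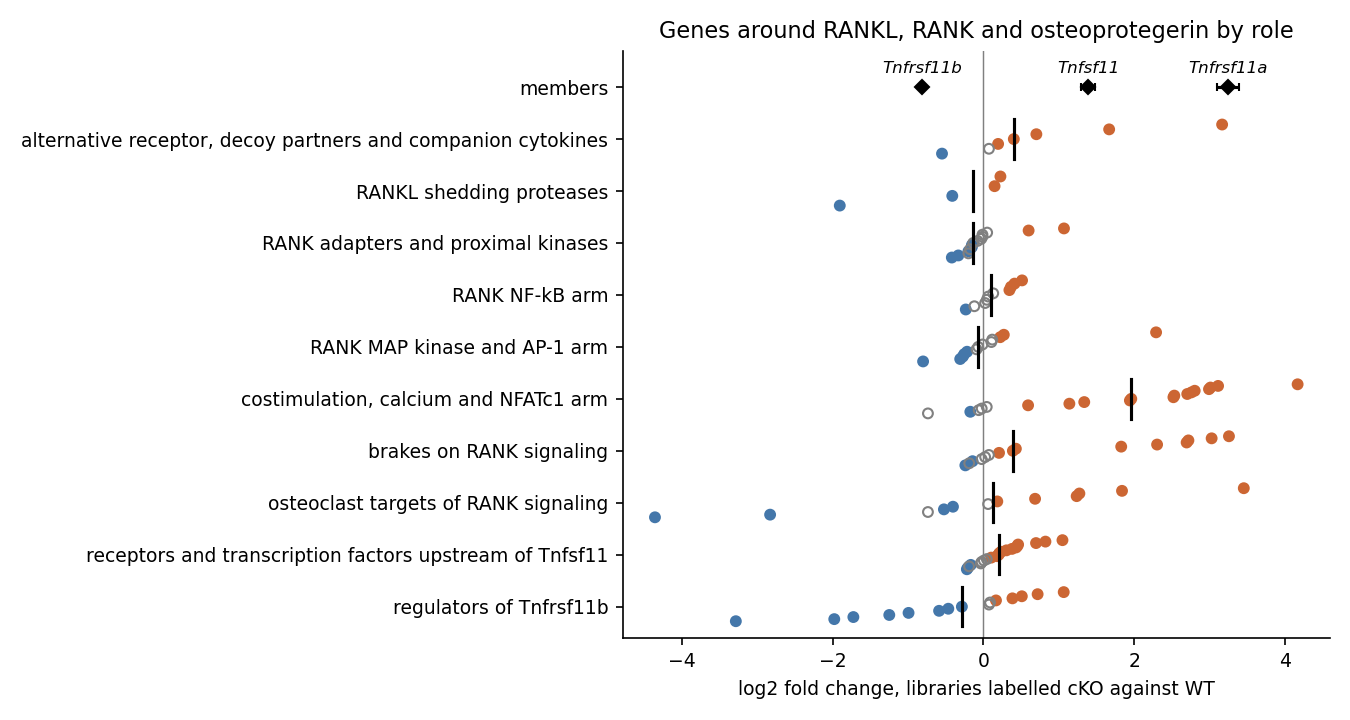
Log2 fold change of the cKO-labelled libraries against WT (horizontal axis) for the tested genes of each list by role, with the members as diamonds with standard errors. Filled points passed at an adjusted p-value below 0.05 (orange higher, blue lower), open points did not, and black lines are medians, such as 1.96 for the costimulation, calcium and NFATc1 arm.

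Among receptors and transcription factors known to act upstream of *Tnfsf11*, 13 of 21 rose and 3 fell (61.9% and 14.3%). Of all tested genes, 20.1% rose and 19.2% fell. The list had a median log2 fold change of 0.20, and 1 of its genes rose by at least 1. The smallest p-values of the list belonged to *Il1r1*, *Tnfrsf1b* and *Tlr4*. *Il1r1*, the interleukin-1 receptor, rose from 76.0 ± 2.57 to 123 ± 5.63 CPM (log2 fold change 0.70). *Tnfrsf1b*, a TNF receptor, and *Tlr4*, the LPS receptor, rose by 0.38 and 0.45. *Ptger2* and *Pth1r*, receptors for prostaglandin E and parathyroid hormone, had log2 fold changes of 1.05 and 0.82. *Vdr*, the vitamin D receptor, rose by 0.20, while the bone lineage factor *Runx2* fell from 42.7 ± 2.58 to 37.0 ± 0.937 CPM (-0.21). *Stat3* did not pass, with a value of -0.04. The part of these genes in the level of *Tnfsf11* was not tested.

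Among genes tied to the control of *Tnfrsf11b*, chiefly Wnt signaling, 8 of 15 tested fell and 5 rose (53.3% and 33.3%). Of all tested genes, 19.2% fell and 20.1% rose. The Wnt target *Axin2* fell from 6.57 ± 0.364 to 1.67 ± 0.495 CPM (-1.98), and *Lef1*, a Wnt-responsive transcription factor, from 0.80 ± 0.346 to 0.079 ± 0.0552 CPM (-3.29). The value for *Lef1* rests on 22 to 44 counts in WT and 2 to 6 in the cKO-labelled libraries. *Wnt16*, a ligand known to raise osteoprotegerin, fell from 5.34 ± 0.331 to 2.24 ± 0.157 CPM (-1.25), and *Ebf2*, a factor that activates *Tnfrsf11b*, from 11.8 ± 0.569 to 7.86 ± 0.403 CPM (-0.59). In the other direction the co-receptor *Lrp6*, *Tgfb1* and the Notch ligand *Jag1* rose, with log2 fold changes of 0.51, 0.72 and 1.07. *Sost* and *Dkk1*, which encode Wnt inhibitors, had 0 counts in every library. *Ctnnb1*, the gene of β-catenin, did not pass (0.09, edgeR adjusted p = 0.0607). The part of these genes in the level of *Tnfrsf11b* was not tested.

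The genes whose levels followed each member most closely were found by Pearson's r of log2(CPM + 1) over the 6 libraries, among 10980 genes with a mean of at least 5 CPM. For *Tnfsf11* they were *Cd300a*, *Myo1g* and *Pacs2*, with r from 0.9990 to 0.9995. For *Tnfrsf11a* they were *Sgpl1*, *Nxpe5* and *Ctsl*, with r from 0.9994 to 0.9997. For *Tnfrsf11b* they were *Ywhag*, *Cited2* and *Sema3a*, with r from 0.9993 to 0.9999. These values describe 6 points that share a split into groups, and 1162 to 1464 genes reached an r of 0.95 with a given member.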

How the data were processed

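Paired-end reads of 150 bases were trimmed by the authors, mapped to GRCm39 (mm39) with HISAT2 and assigned to genes with featureCounts. The sample records give HISAT2 2.0.5 and featureCounts 1.55.0-p3, the methods name another featureCounts release and also quantification with RSEM, and the strand setting is not given in the sources used here. The authors deposited counts per gene, not normalized and all whole numbers, with gene length, symbol and coordinates. Library totals were 39566835 to 49734046 counts.

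All 6 libraries were fitted with edgeR 4.0.16 in R 4.3.3 (filterByExpr, TMM, glmQLFit, glmQLFTest, genotype as the only term), with Benjamini-Hochberg adjustment over 17146 tested genes and a threshold of 0.05. The ratios were compared by an exact permutation test (scipy 1.17.1). Gene models came from GENCODE M39 and upstream sequences from RefSeq on GRCm38.p6, whose coordinates are not those of the counts.

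The members and lists were chosen with earlier results of these data known. Genes named were the members, *Gsdmd*, direct partners, up to 3 higher and 3 lower genes per list by p-value, other members of a list under discussion, and the 3 genes most like each member. Alternatives were limma-voom (limma 3.58.1), DESeq2 1.42.0, the exact test of edgeR, robust estimation, a limit on fold size, other normalizations and filters, halved counts, a replicate block and each library left out.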

Additional observations from a re-analysis of the deposited data

How the results depend on the processing

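The directions of *Tnfsf11*, *Tnfrsf11a*, *Tnfrsf11b* and *Gsdmd* and their side of the threshold held under all 17 alternatives for each. The limit on fold size was not among these 17 and was applied to numbers of genes only. In the main fit *Tnfrsf11b* (-0.82) and *Gsdmd* (0.69) were below that limit in size, and *Tnfsf11* and *Tnfrsf11a* above it. The log2 fold change ranged from 1.28 to 1.53 for *Tnfsf11*, from 3.13 to 3.36 for *Tnfrsf11a*, from -0.89 to -0.80 for *Tnfrsf11b* and from 0.63 to 0.74 for *Gsdmd*. The largest adjusted p-values over these alternatives were 3.06e-07, 1.95e-09, 1.68e-08 and 6.85e-05 (edgeR). The log2 ratio difference of *Tnfsf11* to *Tnfrsf11b* ranged from 2.09 to 2.40 over 10 alternatives, both ends from leaving out a WT library. With an added limit of 1 on the size of the log2 fold change, 1124 genes were higher and 796 lower in place of 3445 and 3285, and 29 and 7 pathway genes in place of 63 and 32, since fewer genes can pass both limits. With upper quartile normalization 39.5% of the passing genes were higher, against 51.2% with TMM. Deviations from the group means of same-numbered libraries had correlations of -0.00098, -0.0038 and -0.018. Those of differently numbered libraries ran from -0.013 to 0.014. No pairing by replicate number was seen, but such values cannot show whether same-numbered cultures were prepared together. With replicate number as a replicate block the log2 fold changes were 1.40, 3.25 and -0.82 for *Tnfsf11*, *Tnfrsf11a* and *Tnfrsf11b*, with 3298 genes higher and 3098 lower. Counts of 64 to 96 for *Tnfrsf11a* in WT limit the precision of its fold change. *Dmp1*, *Sost* and *Tnfsf10* had too few counts across the libraries for a test.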
